A study of Mus musculus with 4 samples.

Results

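The genes described here are 10 components of the cyclic AMP (cAMP) pathway downstream of receptors coupled to the G protein Gs. They are the G protein α subunits Gnas and Gnai2, the adenylyl cyclase Adcy7, the protein kinase A (PKA) subunits Prkaca and Prkar1a, the transcription factor Creb1, and the cAMP phosphodiesterases Pde4a, Pde4b, Pde4d and Pde7a. They were chosen by symbol and role, with earlier results of these data known, and are 10 of the 32285 genes counted. All 10 had at least 50 unique molecular identifiers (UMIs, counted RNA molecules) over the 2 libraries compared. When an agonist binds a receptor coupled to Gs, whose α subunit is encoded by Gnas, Gs activates adenylyl cyclases that make cAMP. Gi proteins such as that of Gnai2 hold back some, but not all, of these cyclases. cAMP releases the catalytic subunits of PKA from their regulatory subunits, and PKA then phosphorylates CREB and other targets. Phosphodiesterases end the signal by hydrolysing cAMP, and those of the PDE4 family are the main cAMP-degrading enzymes of many leukocytes.

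Myeloid-derived suppressor cells (MDSCs) were grown from mouse bone marrow in GM-CSF plus IL-6, both at 40 ng/mL, and live CD11b+ cells were sorted on day 4 for single-cell RNA-seq. Mice were on a C57BL/6 background and aged 6 to 10 weeks. The 2 groups compared, WT and WT+ISO, are 1 library each. The WT+ISO group received isoproterenol (ISO), a β-adrenergic agonist, at 10 µM, and both shared the cytokines and the sort. In the paper's methods ISO was given from the start of culture and renewed daily, and the paper's control received PBS. The treatment field of the labels names isoproterenol for the WT sample as well, and the groups were taken from the sample titles. With 1 library per group there is no replicate check, no test was made, and all intervals are 95% intervals that cover counting error only.

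After filtering, 2210 WT and 2264 WT+ISO cells remained, with 24393687 and 29400468 UMIs and a median of 8088.5 and 10252 UMIs per cell. No barcode was shared between libraries, but the samples were pooled and told apart by tags, so this is not a separate check. Levels are given as UMIs per 1000000 of the library or cluster (CPM). Xist, expressed from the inactive X chromosome of females, had 387.1 CPM in WT and 360.1 in WT+ISO, while the Y-linked Eif2s3y, Kdm5d and Uty had 0 UMIs and Ddx3y 7 UMIs in each. Markers of mature neutrophils summed to 51210 CPM in WT and 59925 in WT+ISO, although 2 of the 6 were lower in WT+ISO. Those of other cell types summed, in the same order, to 65.6 and 7.38 CPM for eosinophils, 48.2 and 51.2 for T or NK cells, 9.06 and 5.07 for basophils or mast cells, 4.3 and 6.43 for B cells, and 0.246 and 0.204 for erythroid cells.

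CREB binds the cAMP response element (CRE), whose full form is TGACGTCA and whose short forms are TGACG and CGTCA. The windows examined ran from 250 bases before to 50 bases after each RefSeq transcript start (GRCm38.p6, the assembly known as mm10), with both strands read. The full form was present in 588 of 32851 promoters (1.79%) and a short form, which the full form contains, in 6837 (20.8%). The table held 24 promoters for 8 of the 10 genes. A short form was present in 10 of the 24 and the full form in 2, both of them overlapping windows of Prkar1a that hold the same site. Overlapping windows of Gnas and of Prkar1a also share short-form sites, so the 10 are not all separate sites. The sequences are shown for Pde4b, the member that differed most between the libraries, and for Prkar1a. For Pde4b they are the 100 bases before each of the 4 transcript starts available, on the plus strand. For Prkar1a they are the 30 bases around its full CRE. Capitals mark the element.
Pde4b, chr4:102421455-102421554: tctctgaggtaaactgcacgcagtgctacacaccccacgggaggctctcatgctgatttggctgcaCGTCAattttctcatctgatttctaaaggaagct
Pde4b, chr4:102569960-102570059: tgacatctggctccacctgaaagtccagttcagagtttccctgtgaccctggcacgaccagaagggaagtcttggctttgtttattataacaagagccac
Pde4b, chr4:102587458-102587557: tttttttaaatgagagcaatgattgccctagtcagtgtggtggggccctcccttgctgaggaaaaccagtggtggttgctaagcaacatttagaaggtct
Pde4b, chr4:102589743-102589842: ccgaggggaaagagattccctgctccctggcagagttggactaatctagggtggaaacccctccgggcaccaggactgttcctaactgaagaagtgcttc
Prkar1a, chr11:109650889-109650918, plus strand: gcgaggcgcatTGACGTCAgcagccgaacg
Pde4b lies at chr4:102087332-102607275, so the 4 starts shown all lie inside the gene and its 5′-most start was not examined. Only the first of the 4 windows held a short form, 34 bases before the start. Prkar1a lies at chr11:109649023-109669663. A match to these letters is a description of the sequence and not evidence of binding.

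Of the 10 genes, Pde4b alone differed by at least 1.5-fold between WT and WT+ISO. Pde4b, a phosphodiesterase that is itself induced by cAMP in many cells, had 117.8 CPM in WT (113.5 to 122.2) and 64.6 in WT+ISO (61.7 to 67.6). The ratio of WT+ISO over WT was -0.87 on the log2 scale (-0.95 to -0.78), that is 1.82-fold lower with ISO. The 20 cells with the most Pde4b UMIs held 10.2% of them in WT and 14.96% in WT+ISO. Over all genes, 1.66% were higher and 6.82% lower by at least 1.5-fold in WT+ISO. At a smaller threshold of 0.32 on the log2 scale these shares were 6.9% and 14.8%, and Pde4b was still the only member called.

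**Figure D1:**
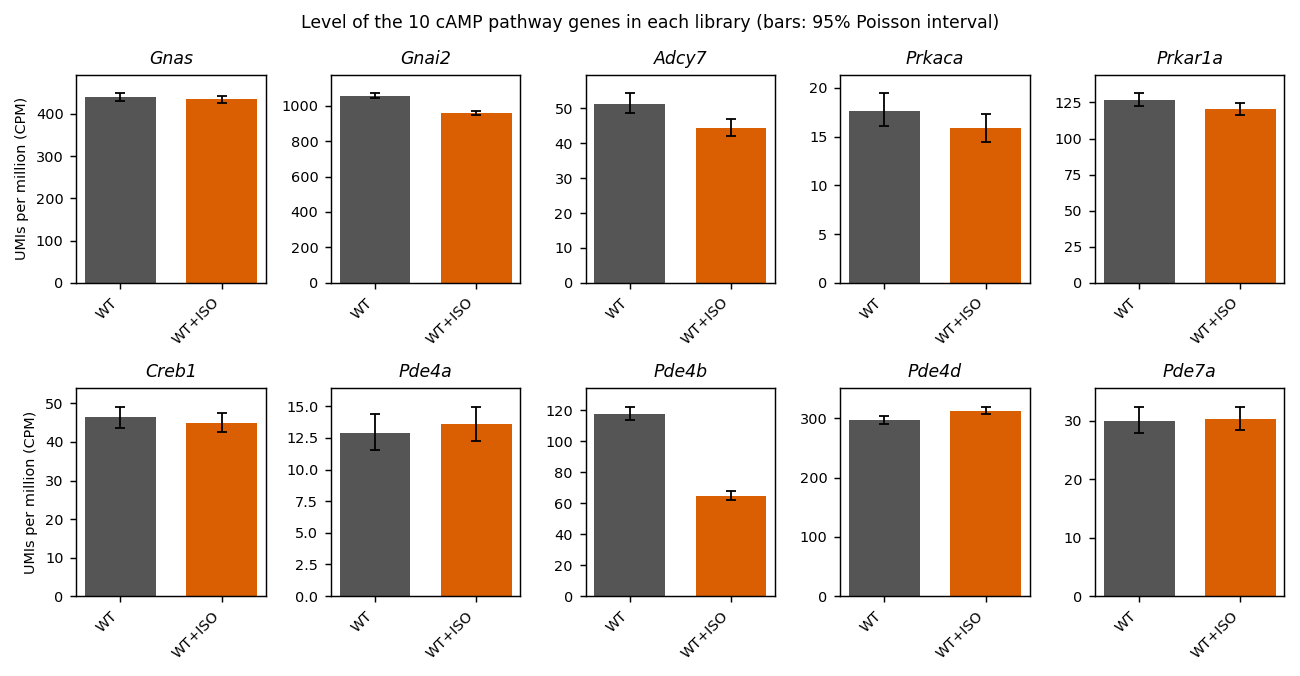
Levels in CPM (y axis, linear, from 0) of the 10 genes in the WT and WT+ISO libraries, with 95% Poisson intervals as error bars. Pde4b stands at 117.8 in WT and 64.6 in WT+ISO, while the other 9 genes differ by less than 0.32 on the log2 scale.

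The other 9 genes differed little with ISO. Gnas, the stimulatory G protein subunit, had 440.1 CPM in WT and 434.2 in WT+ISO, a log2 ratio of -0.019 (-0.057 to 0.018). Gnai2, the inhibitory subunit, had 1056 CPM in WT and 961.2 in WT+ISO. Its ratio was -0.14 (-0.16 to -0.11), below 0 beyond counting error and well under 1.5-fold. The UMIs of Gnas over those of Gnai2, a ratio within a library, were 0.417 in WT and 0.452 in WT+ISO.

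Adcy7, the only adenylyl cyclase of the list above 20 CPM, had 51.4 CPM in WT and 44.4 in WT+ISO, a log2 ratio of -0.21 (-0.32 to -0.099). Prkaca, the PKA catalytic subunit Cα, had 17.7 and 15.9 CPM, and the interval of its ratio (-0.35 to 0.036) included 0. Prkar1a, a regulatory subunit that keeps PKA inactive, had 126.7 and 120.6 CPM, a ratio of -0.072 (-0.14 to -0.0016). Of Adcy7, Prkaca and Prkar1a, Adcy7 had the ratio furthest from 0, at less than 1.5-fold.

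Creb1 had 46.4 CPM in WT and 44.9 in WT+ISO, and Pde4a had 12.9 and 13.6, both with overlapping intervals. Pde4d had 297.1 and 312.9 CPM, and its log2 ratio was 0.075 (0.030 to 0.12). Pde7a, a cAMP-specific phosphodiesterase of another family, had 30.01 and 30.3 CPM. Pde4b was thus lower with ISO, while the related Pde4a and Pde4d were not.

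The cells were grouped into 12 clusters without use of any gene of the cAMP list. By markers, cluster 0 was mature neutrophil-like (Retnlg, Mmp9, Cxcr2). Clusters 1 (Ltf, Camp) and 3 (Camp, Ngp, Cebpe) were specific-granule neutrophil-like, and cluster 8 was azurophil-granule neutrophil progenitor-like (Mpo, Elane). Cluster 4 was macrophage-like (C1qb, Mrc1) and cluster 11 migratory dendritic cell-like (Ccr7, Ccl22). The others stayed unnamed and are given by their leading genes: Csta3 (cluster 2), Gstt1 with Il1b (5), Gpnmb with Gja5 (6), Muc13 (7), Stfa3 (9) and Gpnmb with Atp6v0d2 (10). The macrophage-like cluster was also raised in monocyte and dendritic cell markers. Their mean log2 ratios over all other cells were 1.73 and 1.69, against 3.61 for macrophage markers. Clusters 5 and 6 were raised in mature neutrophil markers, with mean log2 ratios of 0.92 and 0.83, below the 1 needed for a name. Clusters 5 and 10 had median UMIs per cell of 2216 and 2894, against 8428 over all cells. Levels below are UMIs of both WT libraries pooled per cluster, as CPM.

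Of the members detected in every cluster, Pde4b and Pde4d varied most, and they did so in different ways. Pde4b was highest in the migratory dendritic cell-like cluster (374.5 CPM, 333.4 to 419.3) and in cluster 5 (359.3, 328.0 to 392.8), whose intervals overlapped. In WT alone cluster 5 had the higher value, 416.2 against 377.1 CPM. The macrophage-like cluster (242.7), cluster 6 (186.4), the mature neutrophil-like cluster (157.8) and cluster 10 (140.2) followed. Pde4b was lowest in the azurophil-granule progenitor-like cluster (16.3, 13.7 to 19.2), a 23.03-fold range. Among the neutrophil-like clusters it went from 16.3 CPM in the progenitor-like cluster 8 through 35.4 in cluster 3 and 66.6 in cluster 1 to 157.8 in the mature cluster 0, and neighbouring intervals in this order did not overlap.

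Pde4d was also highest in the migratory dendritic cell-like cluster (875.9 CPM, 812.4 to 943.1). Among the neutrophil-like clusters and cluster 5 it ran the other way from Pde4b, with 390.9 CPM in the progenitor-like cluster 8, 347.6 in cluster 3, 277.9 in cluster 1, 93.4 in the mature neutrophil-like cluster and 69.9 (56.5 to 85.6) in cluster 5. The counts of Pde4d over Pde4b went from 24.04 in cluster 8 to 0.195 in cluster 5. Pde4a followed Pde4d rather than Pde4b among the neutrophil-like cells, at 18.4 CPM in cluster 8, 14.2 in cluster 3, 8.15 in cluster 1 and 5.1 in cluster 0. In cluster 10 it had 0 UMIs, which allows up to 10.3 CPM. Pde7a ranged from 22.2 CPM in cluster 9 to 39.8 in the migratory dendritic cell-like cluster, and each neighbour in its order overlapped the next.

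Gnas was nearly flat, from 373.2 CPM in cluster 7 to 471.9 in the macrophage-like cluster, a range of 0.34 on the log2 scale in which every neighbour in the order overlapped the next. Gnai2 was highest in cluster 5 (1554) and lowest in cluster 8 (725.0), and it held both places in each of the 2 libraries. Adcy7 was highest in the macrophage-like cluster (82.3, 74.4 to 90.7) and lowest in the mature neutrophil-like cluster (20.7, 15.995 to 26.4), a 3.97-fold range whose ends were the same clusters in both libraries. The macrophage-like cluster stood apart from the next, cluster 6 (57.8). The lowest cluster overlapped the migratory dendritic cell-like cluster (37.3). With resolution 1.2 or 30 neighbours in the clustering, a cluster led by Ccr7 and Ccl5 was lowest in Adcy7 instead (13.3). At resolution 1.2 Adcy7 (103.4) and Prkaca (31.1) were highest in a cluster led by Plet1 and Dscam. Of its cells 92.5% came from the macrophage-like cluster.

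Prkaca was highest in the macrophage-like cluster (28.6) and lowest in cluster 9 (12.99), and all neighbours in its order overlapped. Prkar1a was highest in clusters 5 (183.004) and 10 (182.2, on 65 UMIs). It was lowest in the mature neutrophil-like cluster (95.97), level with clusters 9 (96.3) and 1 (96.6), with overlapping intervals. That lowest place matched in 1 of the 4 other clusterings. Creb1 was highest in the migratory dendritic cell-like cluster (95.8, 75.6 to 119.7) in both libraries, followed by cluster 5 (71.4, 57.8 to 87.2), with overlapping intervals. Its lowest value was in cluster 10 (33.6, 17.4 to 58.8).

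**Figure D2:**
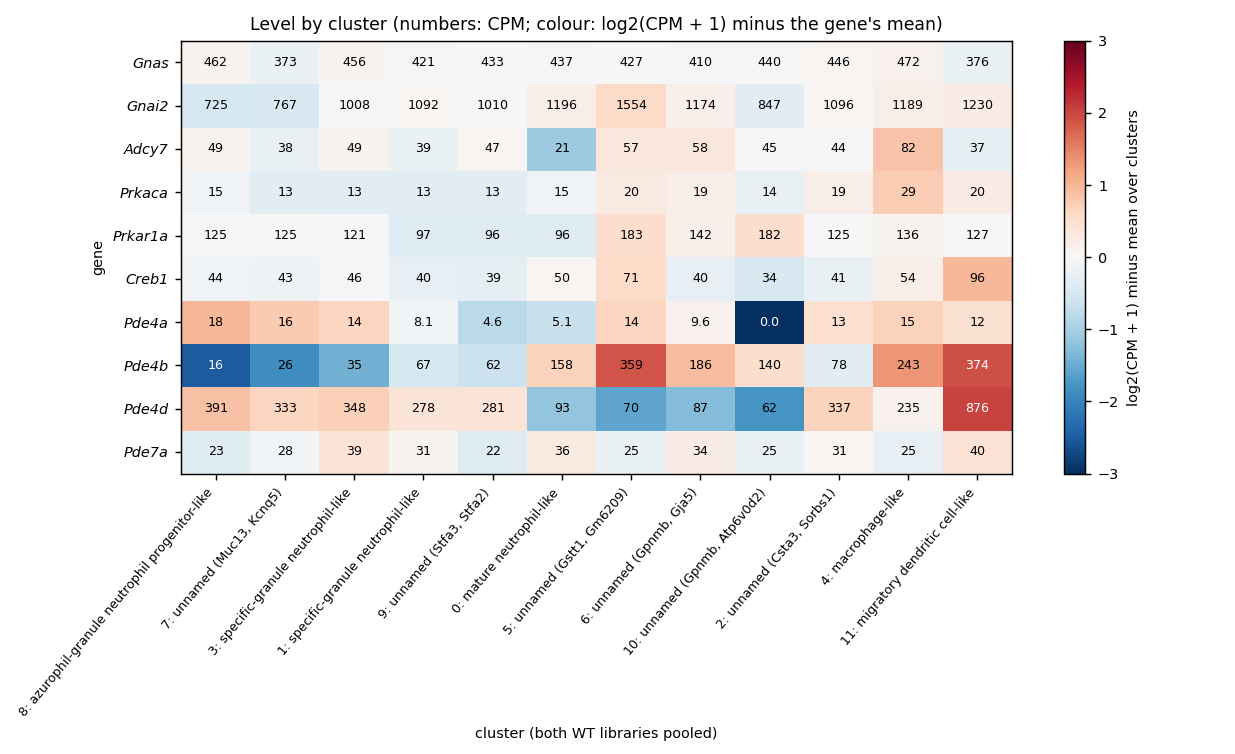
Levels of the 10 genes (rows) in the 12 clusters (columns), both WT libraries pooled, with CPM printed in each cell and colour showing log2(CPM + 1) minus the gene's mean over clusters. Gnas is nearly flat (373.2 to 471.9), while Pde4b and Pde4d run in opposite directions between clusters 8 and 5 and are both highest in cluster 11.

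The mix of clusters differed between the libraries along with Pde4b. Clusters high in Pde4b held fewer of the WT+ISO cells than of the WT cells. The macrophage-like cluster held 8.91% of WT cells (7.76 to 10.2, exact Clopper-Pearson) and 4.95% of WT+ISO cells (4.09 to 5.92), cluster 5 held 14.2% (12.8 to 15.7) and 7.73% (6.66 to 8.91), and cluster 6 held 10.4% (9.12 to 11.7) and 6.01% (5.06 to 7.07). The migratory dendritic cell-like cluster held 37 WT and 15 WT+ISO cells. The mature neutrophil-like cluster 0 went the other way, from 11.1% (9.85 to 12.5) to 16.2% (14.7 to 17.8). So did the specific-granule cluster 3, which is low in Pde4b, from 10.8% (9.55 to 12.2) to 17.01% (15.5 to 18.6). Clusters 5 and 6 were also raised in mature neutrophil markers and held fewer of the WT+ISO cells. The larger share of cluster 0 thus does not stand for all cells with such markers.

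Marker sums moved in the same way. All 6 migratory dendritic cell markers were lower in WT+ISO than in WT, with a summed level of 49.8 against 135.9 CPM, and so were all 7 macrophage markers, with 178.2 against 295.8 CPM. Of the 6 dendritic cell markers 5 were lower, with 330.1 against 988.3 CPM. None of these markers was at 0 in either library. A marker sum alone does not tell fewer cells of a type from less RNA per cell. By cell counts, the macrophage-like cluster held 8.91% of WT and 4.95% of WT+ISO cells. The migratory dendritic cell-like cluster held 1.67% and 0.663%.

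When each cluster was given the same weight in both libraries, the Pde4b ratio of WT+ISO over WT was -0.43 in place of -0.87, and no member passed 1.5-fold. Over all genes, 2.15% were higher and 2.94% lower by that fold with clusters weighted in this way. The ratios of the other 9 genes lay between -0.12 (Adcy7) and 0.078 (Pde4d) at fixed weights. Without the low-UMI clusters 5 and 10 the Pde4b ratio was -0.80.

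Within clusters, Pde4b was lower in WT+ISO than in WT in 10 of 11 clusters with enough cells, and in 5 of them the interval of the ratio was wholly below 0. In cluster 6 it had 245.7 CPM in WT and 112.4 in WT+ISO, a log2 ratio of -1.13 (-1.44 to -0.82). In the mature neutrophil-like cluster it had 229.6 and 121.3 CPM, a ratio of -0.92 (-1.18 to -0.66). In cluster 5 the values were 416.2 and 256.7 CPM (-0.70, -1.004 to -0.40), in cluster 2 they were 92.8 and 61.1 CPM (-0.60, -0.82 to -0.39), and in the specific-granule cluster 3 they were 42.8 and 30.8 CPM (-0.48, -0.79 to -0.16). Cluster 9 had a ratio of -0.61 with an interval that included 0. The macrophage-like cluster differed least of the large clusters high in Pde4b, with 247.9 and 234.3 CPM and a ratio of -0.082 (-0.26 to 0.091). Cluster 7 went the other way, from 20.3 to 29.2 CPM (0.53, 0.061 to 1.01). Since it was an exception, Pde4b is not among the 2.08% of 2737 genes that were lower with ISO in each of the 11 clusters.

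**Figure D3:**
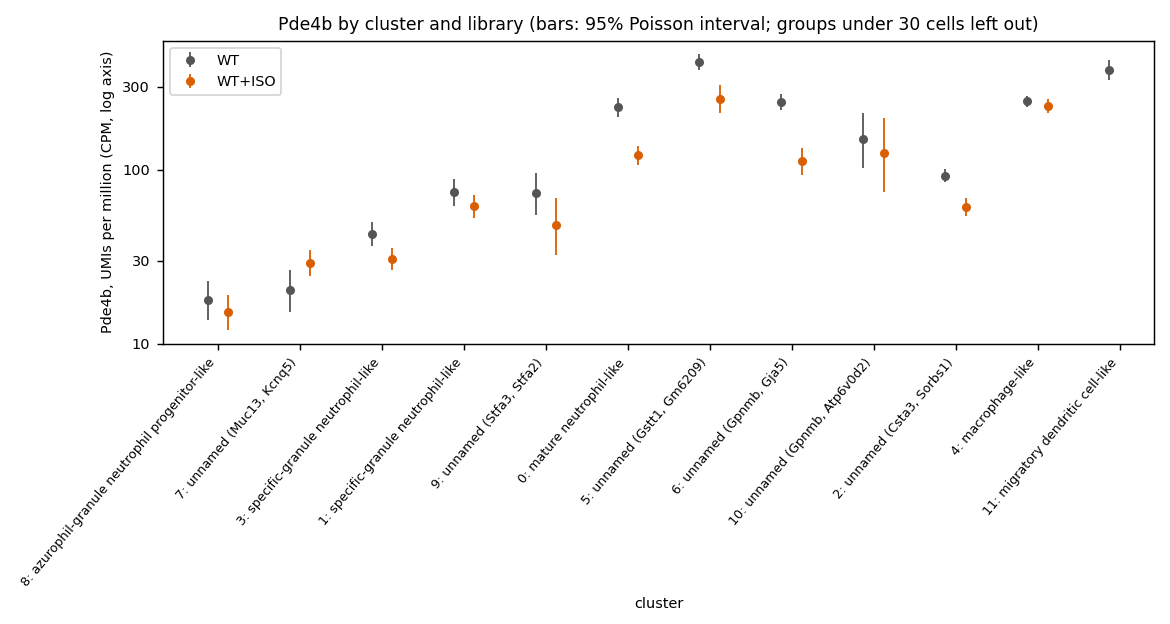
Pde4b in CPM (y axis, log scale) by cluster in the WT and WT+ISO libraries, with 95% Poisson intervals and clusters of under 30 cells in a library left out. WT lies above WT+ISO in 10 of the 11 clusters where both are drawn, with cluster 7 the exception, and the largest gap on this scale is in cluster 6 (245.7 against 112.4).

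Pde4d within clusters was higher rather than lower with ISO in 7 of 11 clusters. The intervals excluded 0 in 5 of the 7, among them cluster 5, with 49.7 CPM in WT and 106.4 in WT+ISO on 43 and 51 UMIs (1.098, 0.48 to 1.72), the mature neutrophil-like cluster, with 63.3 and 108.8 CPM (0.78, 0.38 to 1.197), and the macrophage-like cluster, with 208.2 and 277.8 CPM (0.42, 0.25 to 0.59). In 2 clusters the interval was wholly below 0. In cluster 2 Pde4d had 348.9 CPM in WT and 323.4 in WT+ISO (-0.11, -0.21 to -0.011). In the progenitor-like cluster, where it is high, it had 416.3 CPM in WT and 373.9 in WT+ISO (-0.15, -0.26 to -0.054).

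Gnai2 was lower with ISO in 8 of 11 clusters, with the interval wholly below 0 in 5. Its ratio was furthest from 0 in cluster 5, where it is highest, with 1687 CPM in WT and 1315 in WT+ISO (-0.36, -0.50 to -0.22). In the mature neutrophil-like cluster it had 1192 and 1197 CPM, and in the progenitor-like cluster 722.7 and 726.5, with intervals that included 0. For Gnas, Adcy7, Prkaca, Prkar1a, Creb1, Pde4a and Pde7a, at most 1 cluster had an interval that excluded 0.

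The share of each subtype among all PDE4 UMIs does not depend on how libraries are scaled. Pde4b made up 27.5% of PDE4 UMIs in WT (26.7 to 28.4, exact Clopper-Pearson) and 16.5% in WT+ISO (15.8 to 17.2). Pde4d made up 69.4% and 80.0%, Pde4a 3.02% and 3.47%, and Pde4c 6 and 2 UMIs. Among clusters, Pde4b was the main subtype in cluster 5 (81.04%, 77.7 to 84.1), cluster 10 (69.4%, 57.5 to 79.8), cluster 6 (65.98%, 62.3 to 69.5) and the mature neutrophil-like cluster (61.6%, 58.1 to 64.9). In the macrophage-like cluster the pooled shares of Pde4b (49.3%, 47.3 to 51.3) and Pde4d (47.7%, 45.7 to 49.7) overlapped, but their order differed between the libraries. In WT this cluster had 52.6% Pde4b and 44.2% Pde4d (41.6 to 46.8). In WT+ISO it had 44.5% Pde4b and 52.8% Pde4d (49.6 to 55.9). Pde4d was the main subtype in all the other clusters.

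Within clusters the Pde4b share was lower in WT+ISO than in WT in 11 of 12, and in 7 of these the intervals did not overlap. It was 77.4% in WT (72.4 to 81.9) and 51.4% in WT+ISO (46.9 to 55.9) in the mature neutrophil-like cluster. It was 86.96% (83.3 to 90.05) and 67.6% (60.3 to 74.3) in cluster 5, and 72.2% (67.9 to 76.3) and 53.3% (46.6 to 59.99) in cluster 6. In the macrophage-like cluster, where the level of Pde4b differed little and that of Pde4d was higher with ISO, it was 52.6% (50.001 to 55.3) and 44.5% (41.3 to 47.7). In the migratory dendritic cell-like cluster, with 37 and 15 cells, it was 35.02% (31.3 to 38.9) and 20.8% (16.9 to 25.2). There too the level of Pde4b differed little, with 377.1 CPM in WT and 367.4 in WT+ISO. That of Pde4d was 686.0 CPM in WT (620.6 to 756.4) and 1387 in WT+ISO (1235 to 1553). The 15 WT+ISO cells are fewer than the minimum set for ratios within a cluster. Counting intervals do not cover the spread between cells. With both libraries pooled, Pde4d was 875.9 CPM here and 1322.5 in the cluster led by Ccr7 and Ccl5 at resolution 1.2. Whether the Pde4d difference rests on a few cells was not tested. For the Pde4b share, cluster 7 was again the exception, with 5.82% in WT and 7.48% in WT+ISO and overlapping intervals.

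These are shares of molecules captured at the 3′ end. The genes differ in span, 1302 kb for Pde4d, 519.9 kb for Pde4b and 47.5 kb for Pde4a, and whether intronic reads were counted is not given in the sources used here.

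**Figure D4:**
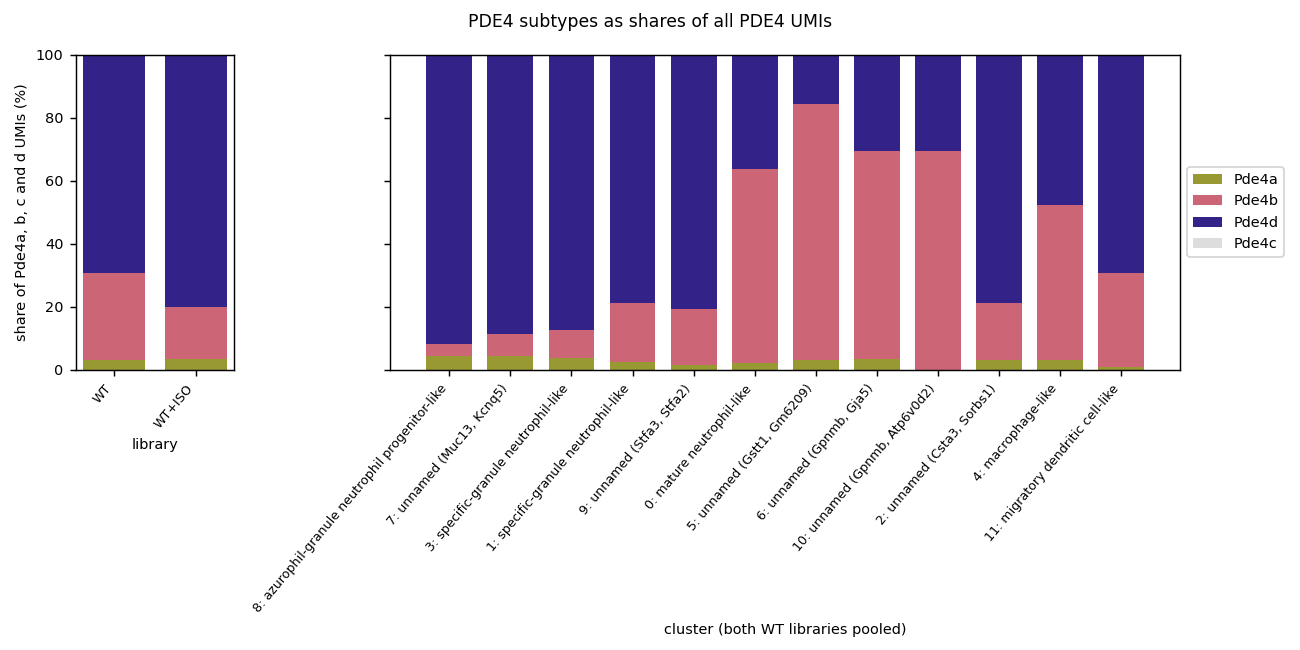
Shares of Pde4a, Pde4b, Pde4c and Pde4d among their summed UMIs (y axis, percent) in the WT and WT+ISO libraries (left) and in each cluster with both libraries pooled (right). Pde4b holds 27.5% in WT and 16.5% in WT+ISO, and ranges from 3.82% in the progenitor-like cluster 8 to 81.04% in cluster 5.

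The wider pathway list, chosen by role with earlier results of these data known, had 117 genes with counts to report. Of these, 88 had enough UMIs. Of these 88, 2 were higher and 15 lower by at least 1.5-fold, beside the 1.66% and 6.82% of all genes, with a median log2 ratio of -0.15 against -0.019 over all genes. With clusters at fixed weights 2 were higher (Adcy3, Rapgef4) and 2 lower (Adra2a, Areg), beside 2.15% and 2.94% of all genes, and the median was -0.018 against 0.022.

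Genes that CREB is known to induce held the most of those lower in WT+ISO, 5 of 8, beside 6.82% of all genes. Areg, an epidermal growth factor receptor ligand, had 91 UMIs in WT and 13 in WT+ISO (3.73 and 0.442 CPM), a ratio of -3.08 (-4.04 to -2.23). Dusp1, a MAP kinase phosphatase, had 98.3 CPM in WT and 57.2 in WT+ISO (-0.78, -0.87 to -0.69). Fos, a subunit of AP-1, had 211.3 CPM in WT and 136.3 in WT+ISO (-0.63, -0.69 to -0.57). The orphan nuclear receptors Nr4a2 and Nr4a3 were also lower (-0.59 and -1.13). With clusters at fixed weights the ratio was -2.27 for Areg, -0.57 for Dusp1, -0.40 for Fos and -0.16 for Nr4a2, and turned to 0.22 for Nr4a3. Of the 5, Areg alone stayed past 1.5-fold.

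Sik1, a kinase that restrains the CREB coactivators, had 22.8 CPM in WT and 15 in WT+ISO (-0.60, -0.79 to -0.42), and a ratio of -0.42 at fixed weights. It was the only one of 11 genes of the CREB family or coactivators past 1.5-fold, beside 1.66% higher and 6.82% lower over all genes. Among 10 phosphodiesterases measured, Pde1b was the only one beside Pde4b that was lower by at least 1.5-fold. It had 11.9 and 7.72 CPM (-0.63), and -0.48 at fixed weights. Pkib, which encodes a PKA inhibitor, had 42.02 and 21.5 CPM in WT and WT+ISO (-0.97), but 0.12 with clusters at fixed weights. Rgs1, a GTPase activator of Gi-type α subunits, had 51.5 and 22.0 CPM (-1.23), and -0.43 at fixed weights.

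The receptor Ptger4, which couples to Gs, had 10.3 CPM in WT and 6.39 in WT+ISO (-0.69), the receptor kinase Grk3 17.7 and 11.3 (-0.65), and the β subunit Gnb4 6.72 and 3.71 (-0.86). At fixed weights Ptger4 was at -0.16, Grk3 at -0.13 and Gnb4 at 0.54. The other 2 lower genes, Adora2a (43 UMIs in WT and 26 in WT+ISO) and Adra2a (39 and 17), rested on few UMIs. The 2 list genes higher in WT+ISO were Ptger3, a receptor that couples mainly to Gi, and Adcy3. Ptger3 had 3.69 and 6.43 CPM (0.80, 0.43 to 1.18), and 0.54 at fixed weights. Adcy3 had 1.93 and 3.13 CPM (0.70, 0.18 to 1.24), and 0.78 at fixed weights.

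No PKA subunit, A-kinase anchor or G protein α subunit passed 1.5-fold, among 5, 9 and 4 measured. With 1.66% of all genes higher and 6.82% lower by that fold, an absence of calls among so few does not set these roles apart. The PKA subunits beside Prkaca and Prkar1a went both ways. Prkar2b, a type II regulatory subunit, had 31.4 CPM in WT and 40.3 in WT+ISO (0.36, 0.23 to 0.50), while Prkar2a, the other type II regulatory subunit, had 32.4 and 26.6 (-0.29, -0.43 to -0.14). Prkacb, the catalytic subunit Cβ, had 20.4 and 19.9 CPM, with an interval of the ratio that included 0.

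**Figure D5:**
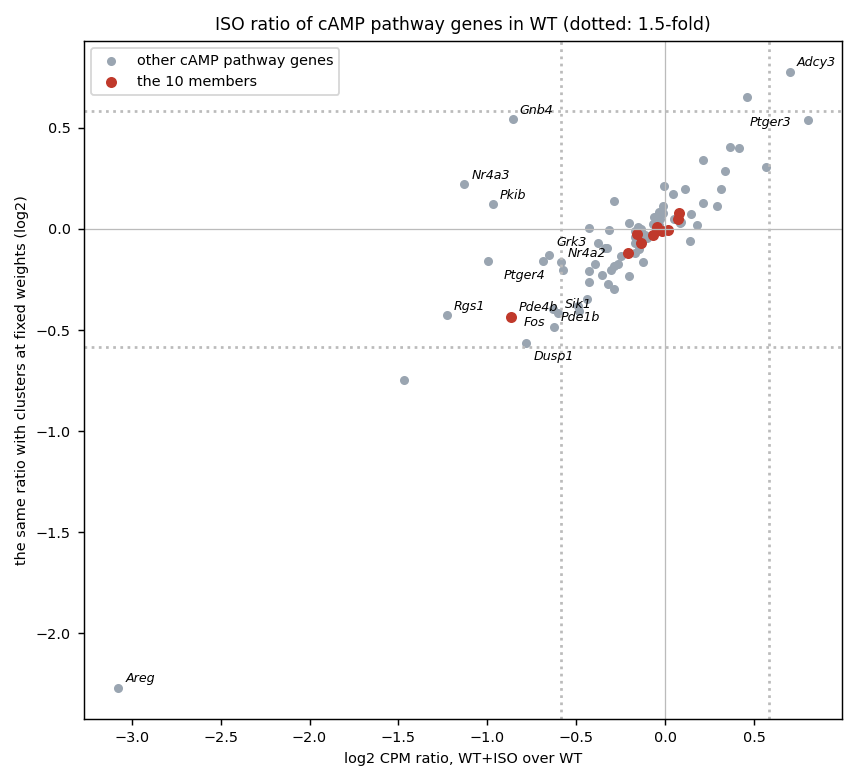
Log2 ratio of CPM of WT+ISO over WT as measured (x axis) and with clusters at fixed weights (y axis) for the cAMP pathway genes with enough UMIs, the 10 members in red and dotted lines at 1.5-fold. Of the members, Pde4b alone (-0.87, -0.43) lies past a vertical dotted line and none past a horizontal one, and Nr4a3, Pkib and Gnb4 change sign between the axes.

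Likeness to each member was taken as Pearson's r of log2(CPM + 1) over 23 profiles of a cluster in a library, among 5917 genes. These profiles share libraries, depth and cell types, so the values are descriptions. Nearest to Pde4b were Btg1, an antiproliferative gene (0.97), and Fbxo11, an F-box protein gene (0.97). Nearest to Pde4d were Acadl (0.91) and Cdca3 (0.91), to Pde4a Eif2b4 (0.93) and Dnajc25 (0.92), to Prkar1a Zc3h13 (0.93) and Phf20 (0.92), and to Gnai2 Stk17b (0.92) and Mfsd6 (0.90). For Creb1 the highest values were 0.84 (Map3k14) and 0.83 (Phf12), for Adcy7 0.80 (Dock1) and 0.79 (Calu), for Prkaca 0.79 (Slx4ip) and 0.75 (Tm2d2), for Pde7a 0.74 (Clasp1) and 0.70 (Cdk19), and for Gnas 0.58 (Man1c1) and 0.56 (Clec4a2). Among the members, Pde4b was nearest to Gnai2 (0.82) and ran against Pde4d (-0.55).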

How the data were processed

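Gene expression was measured by 10x Genomics single-cell RNA-seq in 4 pooled, tag-multiplexed samples. The authors deposited unnormalized UMI counts per gene and cell. The header of the deposited matrices names Cell Ranger 7.0.0, while the submitters' processing notes name Cell Ranger 6.0.0, Seurat and mm10. Treatment of introns is not given in the sources used here, and the Cell Ranger versions named differ in their default for it.

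Groups followed the sample titles. All 4 samples entered the cell filter and the clustering, values are given for WT and WT+ISO, and the rest is not reported here. Of 9525 cells, the 9303 that showed 200 or more genes and no more than 10% mitochondrial UMIs entered the analysis. The 12 multiplexing tags were left out. Doublets were not called and may remain. UMIs were then summed per library or cluster and divided by the total (CPM), with exact Poisson intervals for levels, exact conditional binomial intervals for ratios and Clopper-Pearson intervals for shares. These intervals cover counting error only. In place of a test, a gene was called at 1.5-fold if it had at least 50 UMIs over the 2 libraries. Ratios within a cluster needed at least 20 UMIs of the gene and 30 cells in each library.

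Clustering used log counts per 10000, 2000 variable genes without the cAMP list, 30 principal components, 15 neighbours and Leiden at resolution 0.8 (scanpy 1.11.5, scikit-learn 1.9.0, leidenalg 0.10.2). A cluster was named if at least 3 markers of a class were each in 10% of its cells, their mean log2 ratio was at least 1 and at least 1 was among its 10 leading genes. This naming rule was written after the clusters were seen. Fixed weights give each cluster its mean share of UMIs over the 2 libraries compared.

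Named genes were the 10 members, listed genes past 1.5-fold with at least 100 UMIs over the 2 libraries, and the 2 genes most like each member. Other genes are named where a count was small. The members and lists were chosen with earlier results of these data known. Of 121 listed symbols, 117 were found in the files. Promoter sequences and positions are from RefSeq (GRCm38.p6). The ratio script was tested on simulated data. Alternatives were other scalings, cell filters, cell weights, folds and clusterings.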

Additional observations from a re-analysis of the deposited data

How the results depend on the processing

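Of the counts of members past the fold, 17 of 18 under the alternatives equalled the main count. The number lower in WT+ISO than in WT went from 1 (Pde4b) to 0 with clusters at fixed weights. For Pde4b the log2 ratio with ISO was from -1.003 (equal weight per cell) to -0.43 (fixed weights) and stayed past 1.5-fold with both other scalings, both cell filters and without the low-UMI clusters, an alternative chosen after seeing the data. Of 70 log2 ratios, 59 stayed within their counting interval and 11 moved beyond it. With equal weight per cell 4 of the 10 members moved, the most of any setting. Beside Pde4b these were Adcy7 (-0.33), Prkar1a (-0.15) and Pde4d (0.26). Adcy7 was then also past the smaller threshold of 0.32, though not past 1.5-fold. With median-of-ratios size factors Gnas went from -0.019 to 0.028 and Creb1 from -0.045 to 0.0025, so their direction depends on the scaling. At fixed weights Creb1 (0.0088) and Pde7a (from 0.014 to -0.0075) changed sign. Gnai2 stayed below 0 throughout but moved beyond its counting interval, to -0.088 with median-of-ratios size factors and -0.071 at fixed weights. The Pde4b and Pde4d shares of PDE4 UMIs in the 2 libraries were recomputed only with the stricter filter and with no filter on cells. All 8 of these shares stayed within their intervals. Shares with clusters at fixed weights were not computed. Of the cluster ranges, 30 of 36 stayed within their intervals, and none was given for Pde4a, which was at 0 in a cluster. Under the 4 other clusterings, Pde4b and Gnai2 were highest and lowest in the matching clusters in all 4, and the lowest cluster of Prkaca and Creb1 matched in none. Other scalings moved the median of all genes by at most 0.048 (log2). No paired analysis was possible because a group is a single library. Depth limits Pde4a and Prkaca, with 315 to 466 UMIs per library, whose ratio intervals included 0.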

Other observations

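Eosinophil markers moved with ISO in WT. All 6 (Prg2, Epx, Prg3, Siglecf, Ear1, Ear6) were lower in WT+ISO, with a summed level of 65.6 CPM in WT and 7.38 in WT+ISO, and Prg3 was at 0 in 1 of the libraries. No cluster was named for this class. The mean log2 ratio of the 6 markers over all other cells was above 0 in cluster 7 alone (2.36). None of them was in 10% of the cells of cluster 7, where Pde4b was higher with ISO. Their part in the ratios of the members was not tested.

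Pde7b, a cAMP phosphodiesterase that is not one of the 10 genes, was singled out after its values were seen. It was highest in cluster 10 (114.95 CPM on 41 UMIs) and lowest in the migratory dendritic cell-like cluster (3.73 CPM on 3 UMIs). The log2 range was 4.94 (3.297 to 7.28). Cluster 10 was highest in both libraries. In WT+ISO that place rested on 9 UMIs (62.7 CPM, 28.7 to 119.04) and overlapped the mature neutrophil-like cluster (42.4, 34.0 to 52.2). Over the profiles of a cluster in a library it ran against Pde4d (r = -0.87, 23 profiles).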
